A study of Mus musculus with 6 samples.

Results

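The regions described here are those of a ChIP-seq region list from mouse testis whose centre lies on a tandem repeat with a unit of 4 bases, such as (TAGA)n. They were chosen by the authors' own repeat annotation: chromosome 1 to 19 or X, the class simple repeat, and a unit of 4 letters. This rule uses no measured value. It found 716 regions among 23030 on the autosomes and X and 39096 in the whole list. A further 188 tetranucleotide regions lay outside these chromosomes, 179 of them on Y and 9 on contigs, and were not analysed here.

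The study targeted PHF13, called SPOC1 in the library names, in testis of C57Bl/6 mice aged 5 weeks, with 3 SPOC1 ChIP and 3 input libraries. The labels give wild type for 1 ChIP library and 2 inputs, and Phf13-/- for 2 ChIP libraries and 1 input. The input and ChIP libraries of animal D821 carry different genotype labels, so genotype formed no groups. How the Phf13 allele was made, and which libraries entered the list, the sources used here do not give. The deposited list has 0 columns of values per library. Neither ChIP and input nor the genotypes could therefore be compared, there is no replicate error, and library depth is unknown. The entries are called regions and not binding sites, and no tissue marker can be checked in a list without expression.

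PHF13 has a PHD finger, a fold that reads methylation of histone H3, chiefly at lysine 4. Simple repeats, or microsatellites, are short units repeated head to tail, which gain and lose copies when the polymerase slips. Because such a tract has no fixed phase and can be read on either strand, one repeat can be written with several units. Tandem GATA tracts, the same repeat as TAGA or TCTA, are the main part of the Bkm repeat, which is known for its abundance on sex chromosomes.

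The tracts inside the 716 regions are not shown, since no genome sequence was used here. The nearest view of such repeats was in the RefSeq promoter windows of GRCm38.p6 (250 bases before to 50 after a start), and the following windows show what the 2 leading repeats look like next to genes. In each, capitals mark the perfect tandem copies, and lower case marks up to 15 flanking bases. The first 3 are all the windows with at least 4 copies of the AGAT repeat, and the last 2 hold the longest AAAG tract and one at the gene of the cell cycle factor E2f8.
Gm30097, chr3:82995844-82995893, minus strand: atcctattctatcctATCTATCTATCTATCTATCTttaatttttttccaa
Cyp2c50, chr19:40089429-40089459, plus strand: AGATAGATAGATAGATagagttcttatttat
Gm51598, chr8:55498264-55498309, plus strand: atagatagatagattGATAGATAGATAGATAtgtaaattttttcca
Gm36551, chr5:137856294-137856347, plus strand: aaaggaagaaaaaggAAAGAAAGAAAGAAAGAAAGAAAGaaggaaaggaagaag
E2f8, chr7:48881812-48881846, minus strand: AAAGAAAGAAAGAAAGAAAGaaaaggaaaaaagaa
The tracts of Cyp2c50 and E2f8 start at the edge of their window, so they may be longer.

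Such tracts were rare at promoters. All rotations of a unit and of its reverse complement were searched, on both strands, as at least 4 perfect copies. AGAT tracts stood in 3 of 32851 windows (0.00913%) and AAAG tracts in 22 (0.067%), with longest tracts of 20 and 24 bases. The ACAT repeat reached 60 bases, at Scyl3, and was found in 18 windows (0.0548%). Of the windows with a tract of any of the 9 repeats found among the regions, 0 overlapped a region of the list. Only 82 of all 32851 windows overlapped a listed region, and no repeat had tracts in more than 47 windows (AAAT). With so few, the 0 shows no avoidance. None of the 82 overlaps was with a tetranucleotide region. Regions of the promoter class carry no repeat name in the list, so the annotation largely set this outcome. Tract length inside the regions themselves was not measured.

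A single repeat made up most of the tetranucleotide regions. The file wrote 18 units, which fall into 9 repeats once rotations and reverse complements are joined. The AGAT repeat, written TAGA or TCTA, held 492 regions, or 68.7% (Wilson 95% interval 65.2 to 72.0%, here and below for counting error only). The AAAG repeat, written GAAA or TTTC, held 168, or 23.5% (20.5 to 26.7%). Both together held 660 of the 716 regions (92.2%, 90.0 to 93.9%).

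Both ways of writing a repeat were about equally common. TAGA was at the centre of 259 regions and TCTA of 233, so TAGA had 52.6% of its repeat (48.2 to 57.0%). GAAA was at 82 and TTTC at 86, with GAAA at 48.8% (41.4 to 56.3%). The strand that the annotation refers to is not in the file, so units were not oriented against genes.

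The other 7 repeats held 56 regions. ACAG (CAGA or TCTG) held 18, ACCT (CCTA or TAGG) 13, ATCC (TGGA or TCCA) 7, AAGG (GGAA or TTCC) 6, ACAT (TATG or CATA) 5, AAAT (TAAA or TTTA) 4 and AGGC (CCTG or CAGG) 3. Units with a single G or C among their 4 letters accounted for 92.9% of the regions (90.8 to 94.5%). No unit formed a CpG when repeated (0 of 716, where a count of 0, taken as 3 counts, allows up to 0.419%). Units made only of A and G, or only of C and T, accounted for 24.3% (21.3 to 27.6%). Among the 273 trinucleotide regions that share was 98.5% (96.3 to 99.4%). How often each repeat occurs in the mouse genome was not analysed here, so none of these shares is an enrichment.

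Tetranucleotide repeats were the main kind of simple repeat in the list. They made up 59.9% of the 1195 simple repeat regions on the autosomes and X (57.1 to 62.7%), against 22.8% for trinucleotides (20.6 to 25.3%). Pentanucleotides held 93, hexanucleotides 58 and dinucleotides 54. Of all autosomal and X regions, tetranucleotides were 3.11% (2.89 to 3.34%). They held 1.55% of the covered length and 0.845% of the summed score.

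Most tetranucleotide regions had the shortest common length. Of the 716, 532 were exactly 500 bp long (74.3%, 71.0 to 77.4%), against 37.0% of all autosomal and X regions (36.4 to 37.6%). Other simple repeats were alike, at 77.3% for trinucleotides (72.0 to 81.9%) and 68.0% for the remaining unit lengths (61.3 to 74.0%). The next length of tetranucleotide regions was 625 bp, and 135 of them lay between 600 and 700 bp. Only 13 exceeded 1 kb (1.82%, 1.06 to 3.08%), against 29.8% of all regions. The longest, 1714 bp, was a (TCTA)n region 32.8 kb from the TSS of the phosphatase gene Dusp2 (chr2:127302539-127304253, score 20.8).

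Length differed somewhat by repeat. AAAG regions were 500 bp long in 83.9% of cases (77.6 to 88.7%) and AGAT regions in 71.1% (67.0 to 75.0%). In the ACCT repeat only 5 of 13 had this length (38.5%, 17.7 to 64.5%), and its median was 626 bp. In the ACAG repeat 17 of 18 had it (94.4%, 74.2 to 99.0%).

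The scores were low within the list. The authors gave each region a score whose unit is not stated; it grows with length and is used here only to compare regions within the list. Its median was 7.01 for tetranucleotide regions (quartiles 5.73 and 9.56, range 4.25 to 90.3) and 19.1 for all autosomal and X regions. Scores under 10 came in whole multiples of 0.2124, within 0.005. If that were the worth of 1 tag, 33 tags would stand behind the median (22.7 to 46.3 by counting error) and 20 behind the lowest score. At such counts, small differences between single regions are within counting error.

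When all autosomal and X regions were ordered by score and split into 10 bins of about equal size, with tied scores kept together, 465 tetranucleotide regions fell in the lowest bin (64.9%, 61.4 to 68.3%) and 130 in the next. In the lowest bin, with scores up to 8.07, they were 19.7% of the regions, in the next 5.47%, and in the highest 0.0435%, which was 1 region. LINE regions had 4.05% of their number in the lowest bin and 12.5% in the highest. Trinucleotide regions had 74.7% in the lowest bin and none in the upper 4. At the low end of the list, 33 tetranucleotide regions scored under 5, and 2 stood at the lowest score of the list, 4.25. These were a (TCTA)n region 97.1 kb from the TSS of the endothelin receptor gene Ednra (chr8:77821289-77821789) and a (TTTC)n region near 4930404A05Rik (chr16:52921732-52922232).

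**Figure D1:**
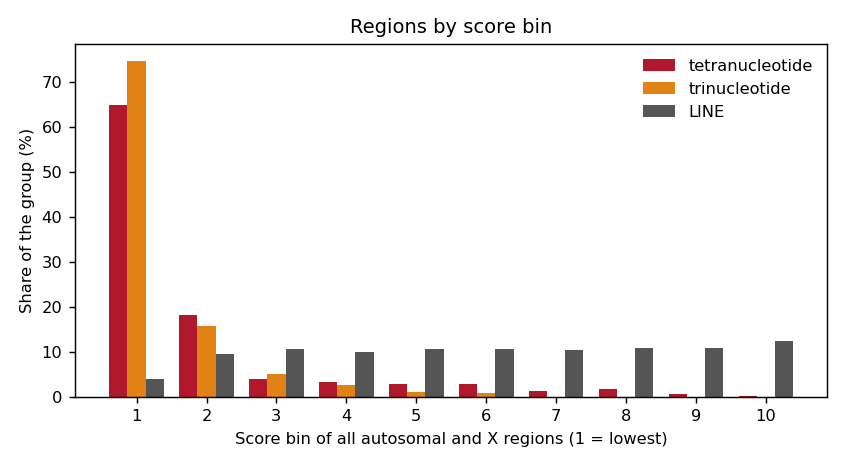
Share of the tetranucleotide, trinucleotide and LINE regions (y axis, %) in each of 10 score bins of all autosomal and X regions (x axis, 1 is lowest). The tetranucleotide bars stand at 64.9% in the lowest bin and at 0.14% in the highest, while the LINE bars stay between 9.54% and 12.5% from bin 2 on.

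Dividing by length did not remove the difference. The median score per kb was 13.2 for tetranucleotide regions (interval of the median 12.7 to 13.6), 12.3 for trinucleotides (11.9 to 12.9) and 12.4 for regions without a repeat (12.3 to 12.7). LINE regions had 28.7 (28.5 to 28.8) and LTR regions 30.2 (29.8 to 30.5). Among regions of exactly 500 bp the median score was 6.58 for tetranucleotides (6.37 to 6.8), 5.95 for trinucleotides (5.73 to 6.16), 12.7 for LINE and 13.8 for LTR regions. These intervals treat regions as independent and are not tests between conditions.

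Of the 2 large repeats, AGAT had the higher scores. Their median score was 7.43 (7.01 to 7.86), against 6.37 for AAAG (6.16 to 6.8). In the part of the list with scores of at least 19.1, the median, stood 41 AGAT regions (8.33%, 6.2 to 11.1%), 5 AAAG regions (2.98%, 1.28 to 6.78%) and 5 of the other repeats (8.93%, 3.87 to 19.3%). The intervals of these shares overlap. Among 500 bp regions AGAT had a median of 6.8 (6.37 to 7.01) and AAAG 6.16 (5.95 to 6.37), intervals that meet at 6.37. In the ACCT repeat 4 of 13 regions were in that upper part, with scores from 20.2 near Ccdc113 to 28.0 in an intron of Pcca.

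**Figure D2:**
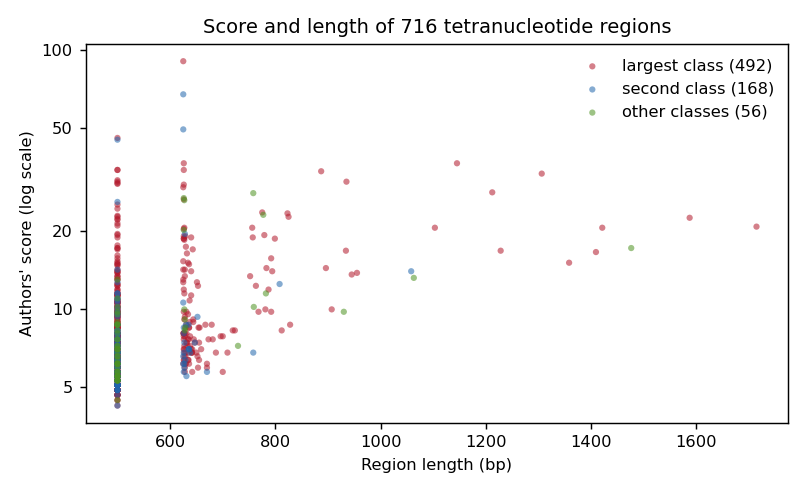
Score (y axis, log scale) against length in bp (x axis) for each of the 716 tetranucleotide regions; the largest class is AGAT (492), the second AAAG (168), and 56 belong to other repeats. Points stack at 500 bp and again from 625 bp, and the highest score, 90.3, belongs to a region of 625 bp.

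The top of the range was held mainly by AGAT regions. The 20 highest scores ran from 28.2 to 90.3, with 17 at AGAT and 3 at AAAG repeats, 8 in introns and 12 intergenic. Of these 20, 8 were 500 bp long and 3 exceeded 1 kb. The 10 highest scores per kb, from 61.2 up, were all among these 20. Highest by both measures was a (TCTA)n region downstream of the TSS of Pthlh, which encodes parathyroid hormone-like hormone (chr6:147236575-147237200, 625 bp, score 90.3, 144 per kb, 27.2 kb from the TSS). It scored above 92.6% of all autosomal and X regions. The second was a (TTTC)n region 2.55 kb upstream of the noncoding gene 1700003M07Rik (chr4:129957514-129958139, score 67.3, 108 per kb).

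The next lay inside genes. A (TTTC)n region in intron 13 of Mov10, an RNA helicase that restrains retrotransposons, scored 49.3 (chr3:104798552-104799177); its nearest TSS was that of the small GTPase gene Rhoc, 9.83 kb away. Bod1, whose protein helps orient chromosomes on the mitotic spindle, carried a (TAGA)n region in intron 1 with a score of 45.7 (chr11:31670985-31671485), 627 bp from the TSS. It was the 1 tetranucleotide region within 1 kb of a TSS (0.14%). Of all autosomal and X regions 46 lay so close (0.2%), 38 of them without a repeat name. Regions of the promoter class carry no repeat name in the list, so the annotation limits this count. Shroom2, an actin regulator on X, carried a (GAAA)n region in intron 1 with a score of 45.0 (chrX:152728029-152728529).

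Regions with scores from 30.2 to 36.5 followed at varied genes. Intronic ones lay in Cpeb4, a regulator of messenger RNA translation (score 34.4), in Bbip1, a subunit of the BBSome of cilia (34.4), in the glutathione transferase gene Mgst1 (31.0) and in Arpin, an inhibitor of the Arp2/3 complex, listed as 2610034B18Rik (30.2). Intergenic ones were nearest to the adhesion gene Igsf11 (36.5), the Rag GTPase gene Rragc (36.5), the peptide receptor gene Prlhr (34.4), the cadherin gene Cdh6 (34.0), the neurofilament gene Nefm (31.0) and the serotonin receptor gene Htr1a (30.4). Their distances to that TSS ran widely, from 57.7 kb at Prlhr to 1351 kb at Cdh6. The other intergenic ones in this score range were nearest to 4933433F19Rik (33.3), D830032E09Rik (31.4) and Gm17746 (30.6). The lowest of the 20 lay in an intron of the kinase gene Pak7 (28.2).

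The smaller repeats were mostly at the low end as well. Of the ACCT repeat, the highest were (CCTA)n in an intron of Pcca, a subunit of propionyl-CoA carboxylase (score 28.0, 36.9 per kb), (TAGG)n 123 kb from the TSS of Nxpe2 (26.8, 42.8 per kb) and (CCTA)n near 9330117O12Rik (23.1). The others of this repeat lay between 5.52, in an intron of the neural adhesion gene Cntn4, and 20.2. Of the ATCC repeat, (TCCA)n near the phosphatase gene Inpp4b stood at 26.3 (41.9 per kb), and the next, (TGGA)n near Dusp26, at 9.13. ACAG regions reached at most 13.0, near Gm13490, but their median per kb, 15.7 (14.02 to 17.42), was above the 12.3 of AAAG (11.5 to 12.7).

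In the remaining repeats 1 region exceeded a score of 10.2, a (TAAA)n region of 1476 bp near Gm8898 (17.2, but 11.7 per kb). AAGG regions ran from 5.31 to 10.2, the highest (TTCC)n in an intron of the ubiquitin-conjugating enzyme gene Ube2e2. ACAT regions ran from 5.31 to 7.65, with 3 of 5 in introns, those of Dst, Galntl6 and the adhesion gene Cadm2. All 3 AGGC regions were intronic, in Pag1 (8.49), Wdr47 (5.73) and Numa1 (5.52), which encodes a protein of the spindle poles. With 3 to 6 regions each, these repeats allow no comparison among themselves.

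Tetranucleotide regions were thinner on X than on any autosome. On average an autosome had 0.289 ± 0.067 per Mb (SD, n = 19); chromosome 5 was lowest with 0.188 and chromosome 14 highest with 0.46. There were 24 on X, or 0.143 per Mb (95% Poisson interval 0.0917 to 0.213), 0.496 times the autosomal mean (0.318 to 0.738 from the counting error of X). All other autosomal and X regions together went the other way, with an X density 2.43 times the autosomal mean. Thus 3.35% of the tetranucleotide regions were on X (2.26 to 4.94%), against 13.9% of all (13.5 to 14.4%).

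By repeat, AGAT stood at 0.475 times the autosomal mean on X, with 16 regions and all 19 autosomes above X. AAAG stood at 0.734 times with 8 regions, and 5 autosomes lay below X. Trinucleotides stood at 0.26 times with 5 regions. Only 3 of the 24 X regions were intronic (12.5%, 4.34 to 31.0%), in Shroom2, 6030498E09Rik and Eda, and their median score was 7.12, close to 7.01 over all. The highest after Shroom2 were (TCTA)n near Ctag2 (22.1) and (GAAA)n near Brwd3 (14.2). Males have a single X, and the part of this in the X density was not tested; how many such repeats X itself holds was not analysed here.

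**Figure D3:**
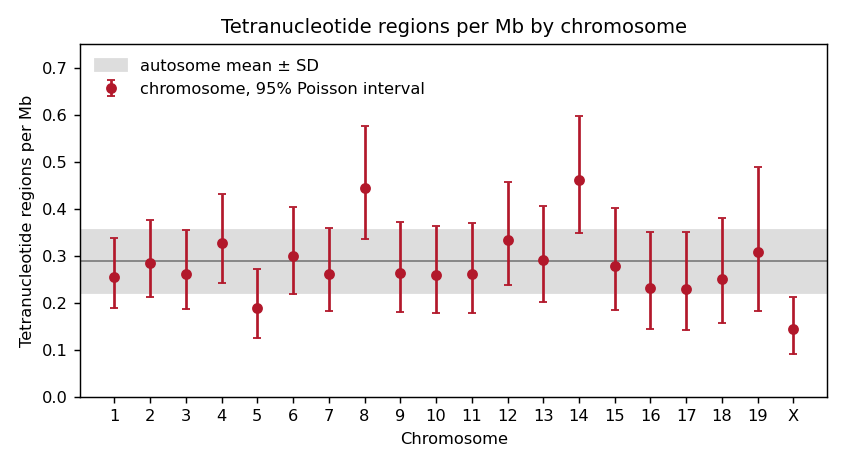
Tetranucleotide regions per Mb (y axis) on each chromosome (x axis); points are counts over the span with 95% Poisson intervals, and the grey band is the mean ± SD of the 19 autosomes. X lies lowest at 0.143 per Mb, and chromosomes 8 and 14 lie highest at 0.444 and 0.46.

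Chromosomes 8 and 14 held 56 regions each, the most of all. Their lower interval bounds, 0.335 and 0.347 per Mb, were above the autosomal mean. On chromosome 8, 40 of the 56 were at AGAT repeats; on chromosome 14, 34 were at AGAT and 17 at AAAG repeats. Over the 19 autosomes the density of tetranucleotide regions had little relation to that of LINE regions (Pearson's r 0.148, Spearman's rho 0.00702), of protein-coding genes (r -0.168, rho -0.1) or of trinucleotide regions (r 0.221, rho 0.177). The chromosomes share 1 list and its threshold.

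Unlike most of the list, tetranucleotide regions mostly stood apart from other regions. Another listed region lay within 10 kb, edge to edge, of 97 of them (13.5%, 11.2 to 16.2%), against 57.1% of all autosomal and X regions (56.4 to 57.7%) and 59.0% of LINE regions. Trinucleotide regions were alike at 11.0% (7.81 to 15.3%). The median distance to the nearest other region was 52.9 kb for tetranucleotides, 54.1 kb for trinucleotides and 3.25 kb for LINE regions. In the upper 50% of the list by score, neighbours were counted only among the regions of that part. So counted, 45.2% of all regions there had a neighbour within 10 kb. Of the 51 tetranucleotide regions there 7.84% had one. That part leaves fewer possible neighbours by construction, so these shares cannot be set against the 57.1% and 13.5% of the whole list.

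**Figure D4:**
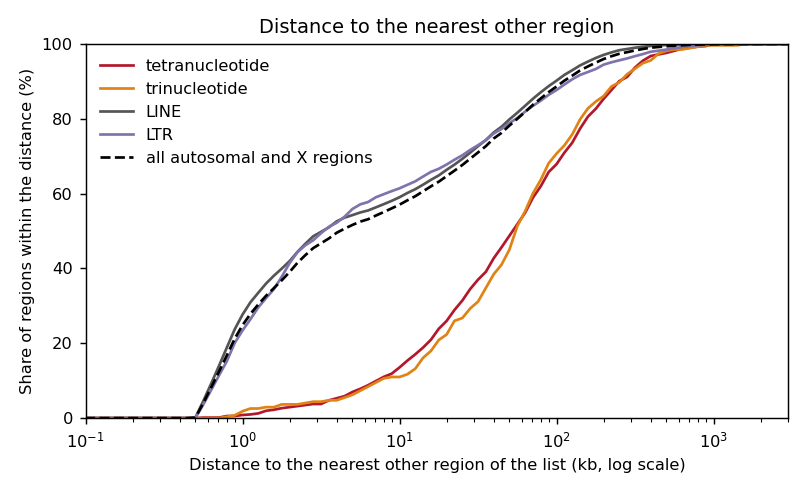
Share of regions (y axis, %) whose nearest other region of the list lies within the distance on the x axis (kb, log scale). The tetranucleotide and trinucleotide curves run together and reach 13.5% and 11.0% at 10 kb, where LINE regions are at 59.0%.

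Where a neighbour was close, it was mostly a young LINE-1 retrotransposon. Of the 97 neighbours within 10 kb, 74 were LINE regions (76.3%, 66.9 to 83.6%), among them 38 at L1Md_T and 29 at L1Md_A. LINE regions made up 72.6% of all autosomal and X regions, a share inside that interval. LTR regions were 7 of the 97, 4 of them at IAPEz-int. Simple repeats were 11, of which 6 were other tetranucleotide regions.

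The 716 regions formed 713 loci when merged within 10 kb, and 700 within 50 kb. Of the 15 loci with several members at 50 kb, 9 held a single repeat. AGAT alone made up 68.7% of the tetranucleotide regions, so many loci would hold a single repeat in any case. No excess can be read from this count. The closest pair was 2 (TAGA)n regions 0.711 kb apart on chromosome 6, near Igbp1b (chr6:138956974-138957474, score 5.1, and chr6:138958185-138958685, score 8.49). A pair of (TCTA)n regions stood 0.924 kb apart on chromosome 10, near Gm4792. The locus with 3 members lay in introns of the transcription factor gene Dach1 on chromosome 14, with scores of 6.16, 9.77 and 22.9.

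On X, 4 (TCTA)n regions stood at even spacing. They started at 54424315, 54515299, 54606353 and 54697328, so that the steps were 91.0, 91.1 and 91.0 kb. Their lengths were 700, 687, 723 and 812 bp, and their scores 7.86, 6.8, 8.28 and 8.28. Each had an L1Md_A region as its nearest neighbour, which started 1.88, 1.78, 1.81 and 1.8 kb before it and scored 13.2 to 18.3. The genes listed there were Gm16405 and Gm16430. Another (TCTA)n region, 719 bp long, stood 306 kb further on, nearest to Slxl1 (score 8.28). The sequence between them was not analysed here; where segments are near-identical copies, the placement of reads among them is uncertain. Without these 4, X would stand at 0.413 times the autosomal mean.

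On chromosome 12, from 22645259 to 24265815, 7 (TAGA)n and 1 (GAAA)n regions stood in a row, 4 with 2410018L13Rik and 4 with 9030624G23Rik as the nearest gene. The first 3 started 144 and 145 kb apart, and the later steps ran from 120 to 448 kb. Their scores ran from 5.73 to 13.4, and the nearest other regions were 28.2 to 101 kb away. The most crowded 1 Mb outside X was on chromosome 8 from 30346787 to 30892620, with 5 regions near 4933433F19Rik and Dusp26, of which 3 were (TAGA)n, 1 (GAAA)n and 1 (TGGA)n, with scores from 5.95 to 33.3.

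All 716 regions were intronic or intergenic by the authors' annotation. Introns held 199 (27.8%, 24.6 to 31.2%) and intergenic sequence 517, against an intronic share of 21.0% over all autosomal and X regions (20.5 to 21.5%). Other simple repeats had similar intronic shares. These were 24.9% for trinucleotides (20.2 to 30.4%) and 31.6% for the remaining unit lengths (25.6 to 38.2%). In the list, regions of the exon, UTR, promoter and termination classes carry no repeat name, so the annotation itself kept such regions out. The intronic share was 25.2% for AGAT (21.6 to 29.2%), 32.1% for AAAG (25.6 to 39.5%) and 37.5% for the other repeats (26.0 to 50.6%). Within AGAT it was 21.6% for TAGA (17.0 to 27.0%) and 29.2% for TCTA (23.7 to 35.3%).

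The host genes were long. The transcripts of 197 of the 199 intronic regions matched the RefSeq table, to 182 host genes with a median length of 180 kb; 42 of them exceeded 500 kb. The hosts of other intronic regions of the list, 1828 genes, had a median of 123 kb, and all protein-coding genes 17.1 kb. Gene length was not corrected for. Intron 1 held 53 of the 199 (26.6%, 21.0 to 33.2%), against 22.9% of other intronic regions. For 63 intronic regions the host was not the gene with the nearest TSS.

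More than 1 region lay in 13 host genes. Dach1 and the glycosyltransferase gene Galntl6, which is 1140 kb long, held 3 each. Pairs lay in Pcdh9, the teneurin gene Tenm2, Klhl1, Olfm3, Pak7, Tmem117, the receptor phosphatase gene Ptprq, Dcdc2c, Cd109, the noncoding gene Nkx2-2os and Ino80, the ATPase of a chromatin remodeller. Scores of these host members ran from 5.73, in Pak7, to 28.2, also in Pak7.

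Distance to a TSS differed by repeat. The median was 92.7 kb over all tetranucleotide regions (interval of the median 78.3 to 105 kb) and 108 kb over all autosomal and X regions. AGAT regions lay at 112 kb (93.7 to 132 kb), AAAG regions at 64.9 kb (44.6 to 91.7 kb) and the other repeats at 32.1 kb (22.0 to 53.4 kb). Within 10 kb of a TSS lay 7.72% of AGAT (5.68 to 10.4%) and 17.3% of AAAG regions (12.3 to 23.7%), intervals that do not overlap. The 18 ACAG regions had a median of 15.2 kb with a wide interval (11.5 to 211 kb). Among them, one lay 13.1 kb from the TSS of Vegfa, a growth factor of blood vessels (score 8.07), and one in an intron of Tenm4 (7.22).

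**Figure D5:**
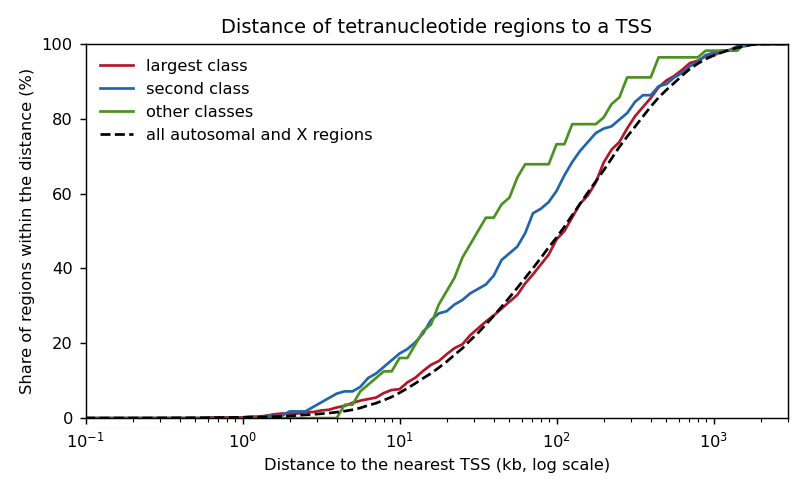
Share of tetranucleotide regions (y axis, %) within the distance to the nearest TSS on the x axis (kb, log scale), for the largest class (AGAT), the second (AAAG) and the other repeats, with all autosomal and X regions dashed. The largest class follows the dashed line, and the curves of the second class and the others lie to its left, with medians of 64.9 and 32.1 kb against 112 kb.

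Close to genes, 34 regions lay at most 5 kb from a TSS (4.75%, 3.42 to 6.56%), against 2.21% of all autosomal and X regions and 1.23% of LINE regions. Trinucleotides were alike at 5.86% (3.64 to 9.31%), as were simple repeats of other unit lengths at 5.83% (3.36 to 9.9%). Regions without a repeat had 15.7%. The 34 tetranucleotide regions were 20 AGAT, 12 AAAG and 2 ACAG regions, 17 upstream and 17 downstream of the TSS. Introns held 16 of them, 11 in intron 1, and 24 scored under 10. Those that scored over 10 lay at 1700003M07Rik (67.3), Bod1 (45.7), Arpin (30.2), the immediate early gene Ier5 (24.4), B930018H19Rik (19.1), the chitinase gene Chia1 (16.8), the acyltransferase gene Mboat2 (12.7), 1700023C21Rik (12.5), Jakmip2 (11.0) and the phosphatase gene Cdc14b (10.8).

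Among the 24 with low scores, those closest to the TSS were (TAGA)n in intron 1 of Ctsm, a cathepsin (1105 bp, score 8.07), (TTTC)n upstream of Fblim1 (1260 bp, 5.73), (TAGA)n upstream of Olfr1381 (1263 bp, 4.46), (TCTA)n upstream of Emp1 (1455 bp, 6.8), (TAGA)n in intron 1 of the synaptic vesicle gene Sv2b (1672 bp, 4.67), (TTTC)n in intron 1 of Herc6 (1931 bp, 5.52) and (TTTC)n upstream of Gpr132 (1980 bp, 6.37). The others were at F2rl2, Tmem236, Gtf2ird1, Mir181b-1, Fabp6, Hrh2, Gm8994, Olfr273, Ccser2, St8sia5, Rtbdn, A330070K13Rik, Olfr726, 2410004P03Rik, Zfp42, Atp6ap1l and Rhag, with scores from 4.88 at Hrh2 to 9.98 at Ccser2. Zfp42, also called Rex1, is a marker of pluripotent cells, and its region was (TCTA)n 4510 bp upstream (score 6.37).

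The nearest genes were mostly single. In all, 638 genes were nearest to a tetranucleotide region, 581 of them to 1, 44 to 2 and 13 to 3 or more. Protein-coding genes were nearest to 78.1% (74.9 to 80.9%), against 80.9% over all autosomal and X regions, and noncoding RNA genes to 20.4% (17.6 to 23.5%), against 16.2%. Pcdh9, a protocadherin of the nervous system, had the most with 6, spread over chr14:92244158-94672920 with scores from 5.52 to 21.0, of which 2 were intronic. All kinds of region counted together, Pcdh9 was nearest to 27.

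Several of the genes with 3 or more regions share a stretch of chromosome 14. Between 90 and 99 Mb, bounds chosen after the values were seen, 18 tetranucleotide regions lay among 110 of all kinds. Tetranucleotides were 4.63% of the regions on chromosome 14 and 3.11% of all autosomal and X regions. Because the bounds followed the values, no excess can be read from this count. Besides Pcdh9, the stretch holds Klhl1 (3 regions, scores 5.31 to 11.3), Dach1 (3) and 4930474H20Rik (4, scores 5.1 to 8.28). Elsewhere, 4 regions each were nearest to 2410018L13Rik, 9030624G23Rik, 4933433F19Rik and 4930474G06Rik. The splicing regulator Rbfox1, the transcription factor Sox11, the synaptic adhesion gene Lrrc4c, Gm16405 and 1700023F02Rik had 3 each. The 3 at Lrrc4c were among 62 regions of all kinds nearest to that gene.

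Few regions had a marker gene of spermatogenesis or of testis somatic cells as the nearest gene. Of 15 genes of undifferentiated spermatogonia, Foxo1 had 1 region, (TCTA)n at 181 kb (score 4.46), and of 8 genes of differentiating spermatogonia, Ccnd2 had 1, (TCTA)n 10.9 kb upstream (9.34). Of 9 Leydig cell genes, Hsd17b3, which makes testosterone, had 1, (GGAA)n at 44.6 kb (6.16). Each of these 3 counts is 0.14% of the regions (0.0247 to 0.787%), against 0.0174%, 0.0174% and 0.013% of all autosomal and X regions, in the same order. With 1 tetranucleotide region each, against 4, 4 and 3 of all kinds, no excess can be read from these shares. The 25 genes of meiotic prophase, 22 of spermiogenesis and 13 of Sertoli cells had 0 each, and a count of 0 among 716 regions, taken as 3 counts, allows a share of up to 0.419%. Over all autosomal and X regions the lists with 0 had shares of 0.0564%, 0.0695% and 0.126%, so a lower share was not detectable.

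The larger families were close to their share of the whole list. Of the tetranucleotide regions 16 (2.23%, 1.38 to 3.6%) were nearest to 9 of 40 long neural adhesion and synaptic genes, against 2.61% of all regions. Olfactory receptors were nearest to 10 (1.4%, 0.76 to 2.55%), against 1.91%, with Olfr722 (score 9.56) and Olfr726 (7.65) the highest. Zinc finger genes were nearest to 8 (1.12%, 0.567 to 2.19%), against 0.973%, led by Zfp462 (10.2) and Zfp536 (9.56). Of Phf genes, Phf3 was nearest to 1, a (TAGA)n region 389 kb away (4.67), or 0.14% (0.0247 to 0.787%) against 0.113% of all regions.

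Vomeronasal receptor genes were nearest to few. The Vmn1r family had 0 tetranucleotide regions, which allows up to 0.419%, against 0.903% of all regions. The Vmn2r family had 3 (0.419%, 0.143 to 1.22%), at Vmn2r95 (score 16.8), Vmn2r26 (7.01) and Vmn2r79 (5.31), against 1.11%. Regions near clustered receptor genes are not independent of each other, and no test was made of these shares.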

How the data were processed

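The samples were 3 SPOC1 ChIP and 3 input libraries of mouse testis. Bowtie2 2.2.2, SAMtools and HOMER 4.6 are named with build mm10 per the submitters' processing notes, which do not say what each was used for. The authors deposited 1 list of regions, annotated with HOMER's annotatePeaks.pl against mm10 per the file headers. The sources used here do not state the pooled libraries, the control or the peak settings. The score is the authors' deposited value for each region and has no stated unit; region length in bp and distance to the TSS are also as deposited.

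From these, score per kb, distance between region edges, and counts by repeat, chromosome and nearest gene were computed. Units were joined with their rotations and reverse complements. Shares have Wilson 95% intervals, medians have binomial order-statistic intervals and counts have Poisson intervals, all for counting error only. Densities used the stretch between the outermost RefSeq genes (GRCm38.p6) or regions of a chromosome. No test was made, since the list has no replicates and regions are not replicates. Entrez numbers of 714 of 716 nearest genes matched RefSeq. The genes named were those nearest to the 20 highest scores and the 10 highest scores per kb, those nearest to 3 or more regions, those within 5 kb of a TSS, and list members, up to 6 a list; genes of smaller repeats and of hosts were named after their values were seen. An item that the naming rule selects is not reported here. The regions and gene lists were chosen with earlier results of these data known. The distance, merging and interval code was tested on simulated data. The software was Python 3.11.15 with SciPy 1.17.1, NumPy 2.4.6, pandas 2.3.3 and, for plots, matplotlib 3.10.9.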

Additional observations from a re-analysis of the deposited data

How the results depend on the processing

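Shares moved mainly with the score threshold. Tetranucleotides were 3.49% of the regions on chromosomes 1 to 19, 2.31% on all chromosomes and contigs, 0.44% in the upper 50% by score and 0.0432% in the upper 10%. In the upper 50%, the AGAT share was 80.4%, the median length 626 bp and the median score per kb 42.0. With neighbours counted only within that part, 7.84% of its tetranucleotide regions had another region within 10 kb. For all regions there that share was 45.2%. The score per kb rises there by construction. Fewer possible neighbours remain in that part, also by construction, so its neighbour shares are not comparable with those of the whole list. For the shifts in AGAT share and length the cause was not tested. With 51 tetranucleotide regions in that part, their neighbour share is also uncertain. The share within a distance of a TSS was 36.3% at 50 kb and 10.6% at 10 kb, and that near another region 0.838% at 1 kb, 6.98% at 5 kb and 48.7% at 50 kb. The X ratio was 0.413 to 0.567 in its alternatives, the intronic share 25.5% to 27.9%, and the number of loci 700 to 714. The X ratio without chromosomes 8 and 14 or without 4 X regions, the 50 kb loci for the intronic share and the neighbours in the upper 50% were chosen after seeing the data. The upper 50% held 51 tetranucleotide regions, 2 of them on X. No paired analysis was possible because values of single libraries are not part of the list.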
